A study of Rattus norvegicus with 10 samples.

Results

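The genes described here are the zinc finger genes that carry a Zfp number on the Affymetrix Rat 230 2.0 array. A probe set was taken as a member if its only gene symbol in the platform's annotation was Zfp followed by a number and at most 1 letter, whatever its values. This gave 208 of the 14217 genes with a probe set of their own, read by 327 of the 31042 probe sets that are not controls. The symbol marks a naming series and not a family of common descent, and 203 of the 208 genes keep the same symbol in the RefSeq table of the rat assembly GRCr8.

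RNA came from the NTS (nucleus tractus solitarii), where baroreceptor and other visceral afferents end in the brainstem. The animals were spontaneously hypertensive rats (SHR), whose blood pressure climbs without treatment as they mature, and Wistar-Kyoto rats (WKY), the normotensive strain they are usually set against. All were males aged 10 to 13 weeks with no treatment or transgene in the labels, and each strain gave 5 arrays. The 2 strains differ at many loci, so blood pressure and the rest of the genetic background cannot be told apart. Arrays are counted as biological replicates in the design text, but whether each holds 1 animal or RNA pooled from the 5 animals named in the descriptions is unclear, and every p-value refers to the spread among arrays.

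Most Zfp genes encode proteins with C2H2 zinc fingers, small modules held by a zinc ion that read bases of DNA in tandem. Many also carry a KRAB domain, which recruits the co-repressor Trim28 and, through it, the histone methyltransferase Setdb1, so that the bound site is silenced. KRAB zinc finger genes often lie in clusters and change quickly between species. Other members work outside this scheme, for example in RNA decay, ribosome assembly or the mitotic spindle.

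Members that differed between the strains were few. Of the 327 probe sets, 228 from 173 genes were bright enough to be tested, and 8 of them (3.51%) from 7 genes passed the threshold, an adjusted p below 0.05 in limma over all 18846 probe sets tested. In that whole set 4.26% passed, so the share among Zfp probe sets lay near the background. Higher in SHR were Zfp597, Zfp317 on both of its probe sets, Zfp488 and Zfp575, making 5 probe sets, and lower were Zfp18, Zfp629 and Zfp518a, making 3. Over all probe sets tested 2.06% were higher and 2.2% lower. Differences throughout are SHR minus WKY on the log2(signal + 16) scale with their SE, and levels are signals on the linear scale with their SD over 5 arrays. On this scale Zfp597 was the 1 tested member that differed by 2-fold or more. With an offset of 1 in place of 16, Zfp18, Zfp324 and 1 probe set of Zfp317 did so too among the members named here. Their differences were then -1.33, -1.06 and 1.00 in log2 units, and Zfp324 missed the threshold in the fit reported. In bulk tissue fewer cells of a type and less RNA per cell cannot be told apart.

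The promoters of Zfp597 and Zfp317 are shown because these genes had the largest differences above 0. Both windows run from 250 bases before to 50 bases after a transcript start in the RefSeq table of GRCr8, which is the sequence of a Brown Norway rat. SHR and WKY sequence was not analysed here. Capitals mark the CCAAT box, the GC box GGGCGG, the TATA box TATAAA and the motif TACANTTCC, where N is any base. Each was searched on both strands, so that the CCAAT box also appears as ATTGG. No 2 marked motifs overlap in these windows.
Zfp597 (GRCr8 chr10:12159283-12159582, plus strand): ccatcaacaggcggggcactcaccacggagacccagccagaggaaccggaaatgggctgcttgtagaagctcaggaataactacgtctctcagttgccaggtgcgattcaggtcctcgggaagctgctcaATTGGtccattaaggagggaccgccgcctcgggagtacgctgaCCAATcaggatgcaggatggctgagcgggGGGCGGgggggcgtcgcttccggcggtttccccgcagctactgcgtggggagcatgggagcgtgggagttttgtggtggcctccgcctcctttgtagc
Zfp317 (GRCr8 chr8:25867428-25867727, plus strand): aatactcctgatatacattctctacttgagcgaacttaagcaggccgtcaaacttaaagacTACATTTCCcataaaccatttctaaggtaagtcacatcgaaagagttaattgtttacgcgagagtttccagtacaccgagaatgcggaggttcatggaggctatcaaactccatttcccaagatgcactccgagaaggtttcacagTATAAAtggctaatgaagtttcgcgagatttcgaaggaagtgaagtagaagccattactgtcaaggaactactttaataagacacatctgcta

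The Zfp597 window held 20 CG pairs, the CCAAT box at 2 places and the GC box at 1, and 62.3% of its bases were G or C. The Zfp317 window held 11 CG pairs, with the TATA box and TACANTTCC at 1 place each, and 40.3% of its bases were G or C. Windows were given for 168 of the Zfp genes. The CCAAT box stood in a window of 44.6% of these and of 39.6% of all 27457 genes with a window. The GC box stood in 47.6% of the Zfp genes and 36.0% of all, and the TATA box in 10.7% and 15.3%. The median number of CG pairs in a window was 16.5 for Zfp, against 7 over all windows. None of the motif shares given here was matched for base composition. The motif TACANTTCC was chosen after the Zfp317 window and the strain differences had been seen. It is part of the element known to bind Zfp143, a transcriptional activator that is itself a member. It occurred in 13 of the 168 Zfp genes (7.74%) and in 2.02% of all genes, a description of these windows and not of binding.

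Zfp597 had the largest difference of the tested members. In human its counterpart is an imprinted gene. Its signal was 252, 239, 243, 252 and 256 on the 5 SHR arrays, against 87.0, 76.0, 85.2, 69.1 and 82.7 on the WKY arrays. Every SHR value was above every WKY value by a wide margin. The means were 248 ± 7.0 in SHR and 80.0 ± 7.40 in WKY (SD, n = 5 each), a log2 difference of 1.46 ± 0.074 (SE) or 2.76-fold on the log2(signal + 16) scale, with a limma adjusted p of 3.23e-09. The array holds 1 probe set for this gene, so a second reading is lacking.

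Zfp317, a KRAB zinc finger gene, was the member that passed on 2 probe sets. On the dimmer of them its signal was 53.8, 58.2, 69.4, 58.9 and 48.4 in SHR, against 31.8, 24.4, 32.8, 25.2 and 27.5 in WKY. On the brighter it was 119, 114, 129.8, 137 and 127 in SHR, against 96.8, 94.3, 80.8, 85.3 and 94.2 in WKY. On both probe sets all SHR arrays lay above all WKY arrays. The log2 difference was 0.73 ± 0.12 (1.66-fold; limma adjusted p = 0.00138) on the dimmer and 0.41 ± 0.081 (1.33-fold; limma adjusted p = 0.00698) on the brighter.

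Zfp18, whose human counterpart has a SCAN and a KRAB domain, was lower in SHR. Its signal was 9.76, 21.8, 12.5, 20.6 and 16.7 in SHR, against 50.8, 36.0, 44.4, 41.7 and 33.5 in WKY. The strains did not overlap, and the SHR values were at the low end of the scale, where the fold rests on the offset. The log2 difference was -0.83 ± 0.15 (limma adjusted p = 0.00371), and it ran from -1.33 to -0.39 over the alternative fits. This gene, too, had 1 probe set.

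Zfp629, a C2H2 zinc finger gene, had 84.95, 94.8, 84.3, 84.2 and 86.7 in SHR, against 116, 113, 112, 104 and 116 in WKY. All SHR arrays were below all WKY arrays. The log2 difference was -0.32 ± 0.077 (limma adjusted p = 0.0245). A second probe set of Zfp629 was too dim to test and had means of 23.9 ± 7.40 in SHR and 11.9 ± 6.82 in WKY, the opposite direction.

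Zfp518a, another C2H2 zinc finger gene, had 31.1, 11.4, 29.5, 31.6 and 27.5 in SHR, against 40.3, 48.9, 46.8, 43.0 and 49.7 in WKY. The strains did not overlap, and SHR 2 stood far below the other SHR arrays. The log2 difference was -0.57 ± 0.15 (limma adjusted p = 0.0442). Without SHR 2 it was -0.43 and no longer passed (limma adjusted p = 0.068).

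Zfp575, also a C2H2 zinc finger gene, had 53.8, 81.2, 82.0, 63.8 and 61.4 in SHR, against 54.7, 38.3, 50.04, 46.7 and 38.5 in WKY. The strains overlapped, since SHR 1 lay below WKY 1. The log2 difference of 0.45 ± 0.12 was close to the threshold (limma adjusted p = 0.0486), and without SHR 2 and SHR 3 it was 0.30 (limma adjusted p = 0.253).

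**Figure D1:**
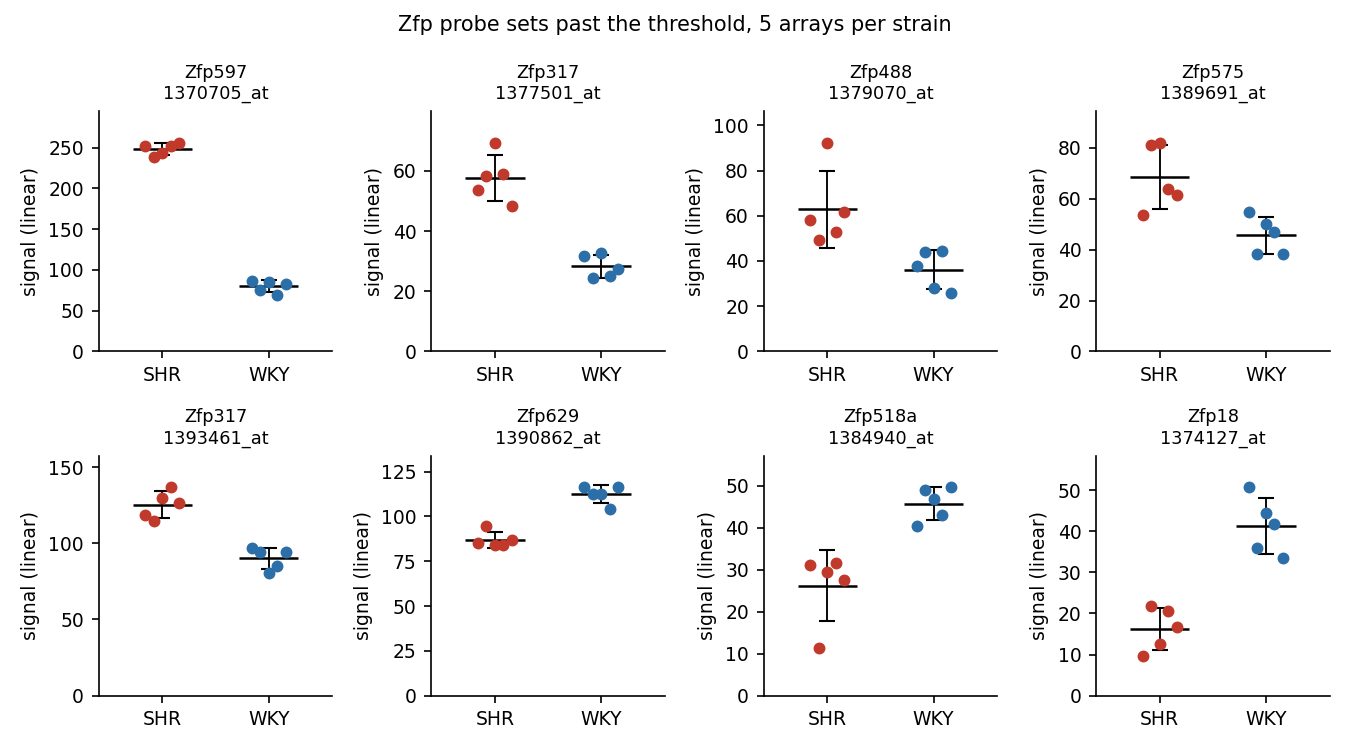
Signal on a linear scale of the 8 Zfp probe sets past the threshold, with 1 point for each array, 5 SHR at the left and 5 WKY at the right; lines are means and bars are SD. Zfp575 is the panel in which the strains overlap, and in the panels of Zfp629, Zfp518a and Zfp18 the SHR points lie below the WKY points.

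The calls differed in how they bore other processing. Among the alternative fits in which each could be tested, Zfp597 passed in 23 of 23, Zfp18 in 22 of 22, Zfp317 in 21 of 22 on its dimmer and in 21 of 23 on its brighter probe set, and Zfp629 in 18 of 23. Zfp488 passed in 12 of 22, Zfp518a in 12 of 22 and Zfp575 in 7 of 22. Array medians of all signals were 44.2 to 49.8 among SHR, against 39.6 to 45.7 among WKY. With this median as a covariate 2 Zfp probe sets passed, those of Zfp597 and Zfp18. The log2 differences of the others in that fit were 0.57 and 0.44 for Zfp317, -0.35 for Zfp629, 0.52 for Zfp488, -0.45 for Zfp518a and 0.25 for Zfp575. Setting all arrays to a common median moved the median difference of all probe sets tested to -0.11 and that of the Zfp probe sets to -0.10. Then 15 Zfp probe sets passed, 2 higher and 13 lower in SHR, against 5 higher and 3 lower as reported, while 6.93% of all probe sets passed (1.09% higher, 5.84% lower). The 10 added calls were all lower, those of Zfp24 on 2 probe sets, Zfp462, Zfp91, Zfp324, Zfp414, Zfp512b, Zfp395, Zfp467 and Zfp654. Quantile normalization gave 3 higher and 3 lower, all among the 8, while 3.6% of all passed (1.44% higher, 2.16% lower).

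Zfp488 and Zfp24 are members with a role in myelinating cells. Zfp488 cooperates with Olig2 in oligodendrocyte differentiation, and Zfp24, also called Zfp191, is needed for myelination in mouse. Zfp488 had 58.1, 49.4, 92.3, 52.9 and 61.5 in SHR, against 37.9, 44.0, 28.1, 44.4 and 26.0 in WKY. The strains did not overlap, and SHR 3 stood apart at the top. The log2 difference was 0.59 ± 0.15 (limma adjusted p = 0.034). Without SHR 3 it was 0.47 and did not pass (limma adjusted p = 0.0683).

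Zfp24 did not pass on any of its 3 probe sets with the scaling as deposited, and passed on 2 with arrays set to a common median. As deposited it had log2 differences of -0.24 ± 0.082, -0.28 ± 0.0995 and -0.14 ± 0.14 (limma adjusted p = 0.107, 0.116 and 0.598). On the first, all SHR arrays were below all WKY arrays. Of 9 probe sets for 4 oligodendrocyte marker genes 2 were lower in SHR and 0 higher in limma, against 2.2% and 2.06% of all. An unadjusted p under 0.05 was found for 3 of the 9, among them 1 of Mbp, against 21% of all. Both calls were of Mobp, a myelin protein gene, with log2 differences of -1.41 and -0.34, and the remaining Mobp probe set differed by -0.022. The 3 probe sets of Mbp, another myelin protein gene, had log2 differences of 0.28, 0.093 and 0.32 without passing. The summed signal of the list was 7745 to 9814 among SHR, against 7259 to 9519 among WKY. The part of oligodendrocyte content in the Zfp488 result was not tested.

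The 228 tested probe sets were centred near 0. Their median log2 difference was 0.015, with quartiles at -0.087 and 0.12, and the median over all 18846 probe sets was 0.016. Differences above 0 numbered 123 and those below 0 numbered 105. An unadjusted p under 0.05 was found for 36 of the 228 (15.8%), against 21% of all probe sets. SHR and WKY values did not overlap for 13 Zfp probe sets (5.70%), against 6.13% of all probe sets, with SHR above in 8 (3.22% of all) and below in 5 (2.91% of all).

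**Figure D2:**
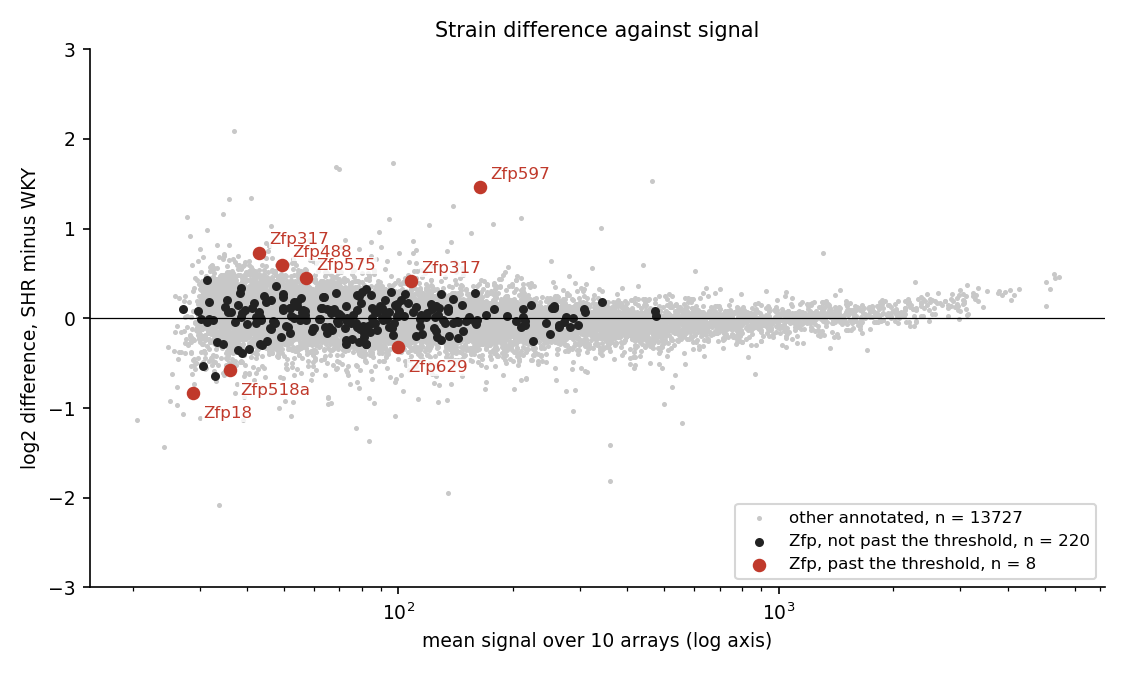
Log2 difference, SHR minus WKY, against the mean signal over 10 arrays on a log axis, for 13727 other annotated probe sets in grey, 220 Zfp probe sets that did not pass in black and the 8 that passed in red with their symbols. The Zfp probe sets reach a mean signal of 476, and Zfp597 at 1.46 stands apart from the other members.

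The spread of the Zfp differences was set against annotated probe sets of like signal, that is, all other tested probe sets with 1 gene symbol, weighted so that the 10 signal bins held the same shares as the Zfp probe sets. The SD of the log2 differences was 0.21 for Zfp and 0.21 for the others, a ratio of 0.994. The ratio ran from 0.960 to 1.05 over the alternative fits. Without Zfp597 the SD was 0.19 and the ratio 0.886. Zfp597 was left out for its own large difference and none of the others was, so this ratio is lower by construction. The median absolute difference was 0.11 for Zfp and 0.12 for the others, and 3.69% of the others passed. Between arrays of a strain the median SD was 0.16 for Zfp and 0.17 for the others, in log2 units.

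Split by mean signal into groups of 76 Zfp probe sets, the dim group (27.2 to 57.0) held 5 of the 8 calls, the middle group (59.2 to 99.7) 1 and the bright group (99.7 to 476) 2. The share that passed was 6.58% in the dim group against 2.95% of the others in that range. It was 1.32% against 3.31% in the middle group and 2.63% against 4.73% in the bright group. In the middle group the SD of the differences was 0.16 for Zfp and 0.20 for the others, and in the bright group, which holds Zfp597, 0.21 and 0.16. These counts are small and are given as a description.

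**Figure D3:**
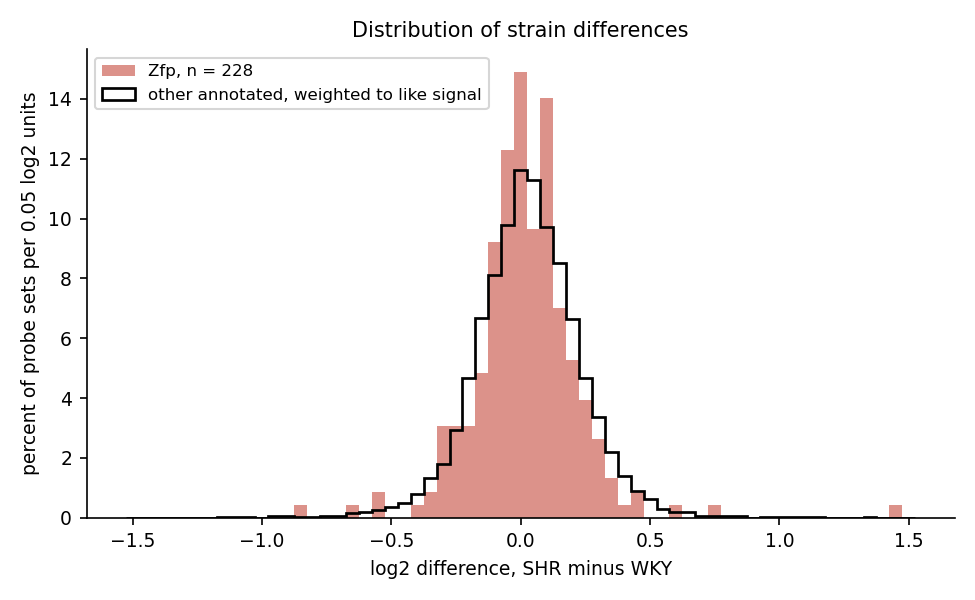
Percent of probe sets in steps of 0.05 log2 units of the difference, SHR minus WKY, for the 228 Zfp probe sets (filled) and for other annotated probe sets weighted to like signal (line). Both are centred near 0 with nearly equal SDs, and the isolated bar near 1.46 is Zfp597.

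Other zinc finger genes named by other schemes were few on the array. Of 40 tested probe sets with a Zbtb symbol, whose proteins join a BTB domain to zinc fingers, 1 was higher and 3 lower in SHR, a share of 10% beside 4.26% of all probe sets, and 13 of the 40 (32.5%) had an unadjusted p under 0.05, against 21% of all. Zbtb20, a repressor expressed in glia and hippocampal neurons, passed on 2 probe sets with opposite signs (log2 differences 0.56 and -0.57), and Zbtb4 and Zbtb41 were lower by log2 differences of -0.33 and -0.63. Of 9 with a Znf symbol and 10 with a Zscan or Zkscan symbol 0 passed in limma, with 0 and 4 at an unadjusted p under 0.05. Their median log2 differences were 0.0083 for Zbtb, -0.030 for Znf and -0.16 for Zscan and Zkscan. Whether these families differ from the Zfp genes was not tested.

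KRAB zinc finger proteins silence chromatin through partner proteins. Of 26 tested probe sets for 20 of these co-repressor genes 0 passed in limma, where 4.26% of all probe sets did, and 2 passed with arrays set to a common median. An unadjusted p under 0.05 was found for 3 of the 26, against 21% of all, and the median log2 difference was -0.016. The signal of Trim28 was 418 ± 24.1 in SHR and 404 ± 29.7 in WKY, with a log2 difference of 0.049 ± 0.065 (limma adjusted p = 0.709). The tested probe set of Setdb1 differed by -0.038 ± 0.076.

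Apart from Zfp488, described above, none of the members named here for a function in neurons or development passed with the scaling as deposited. Zfp423, a partner of Ebf factors in cerebellar development, had log2 differences of -0.095, 0.29, -0.11 and 0.16 on its 4 probe sets, none of which passed (limma adjusted p from 0.135 to 0.729). Its paralog Zfp521 had 89.4 ± 11.8 in SHR and 104 ± 10.0 in WKY, a difference of -0.19 ± 0.097 in log2 units. Zfp462, a chromatin regulator of the nervous system, pointed below 0 on both probe sets, at -0.29 ± 0.12 and -0.25 ± 0.093, without passing (limma adjusted p = 0.163 and 0.133). Zfp365, which binds the neuronal scaffold Disc1, had 61.9 ± 13.6 in SHR and 61.7 ± 3.61 in WKY. Zfp110, which binds the neurotrophin receptor p75, had 156 ± 25.3 in SHR, against 138 ± 9.26 in WKY (log2 difference 0.15 ± 0.094). Zfp292, first described in rat pituitary cells as a regulator of growth hormone, lay between -0.16 and 0.14 on its 5 tested probe sets.

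Zfp57, which with Trim28 keeps methylation at imprinted loci, had 125, 114, 161, 75.4 and 125 in SHR, against 119, 144, 142, 127 and 124 in WKY. SHR 3 gave the highest value and SHR 4 the lowest, so the strains overlapped fully (log2 difference -0.14 ± 0.13; limma adjusted p = 0.555). Zfp354a, known as a kidney injury gene in rat, had 91.7, 110.3, 75.1, 98.6 and 75.3 in SHR, against 70.5, 75.7, 72.4, 68.9 and 62.9 in WKY. It pointed higher without passing (log2 difference 0.29 ± 0.10; limma adjusted p = 0.119). Zfp148 and Zfp281, which bind GC-rich promoters, differed by at most 0.032 in size on 4 probe sets.

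Zfp36 encodes tristetraprolin, which binds AU-rich elements and hastens the decay of cytokine mRNAs, and its gene is an immediate early gene. It had 30.4, 44.4, 53.3, 29.96 and 38.7 in SHR, against 34.5, 27.8, 33.9, 28.9 and 32.8 in WKY. The groups overlapped, with SHR 3 and SHR 2 highest (log2 difference 0.20 ± 0.14; limma adjusted p = 0.416). Among 17 immediate early genes tested on 23 probe sets 1 was higher and 1 lower, where 2.06% and 2.2% of all probe sets were. An unadjusted p under 0.05 was found for 5 of the 23, against 21% of all. The higher one was Egr4 (log2 difference 1.13 ± 0.19), and the lower was a probe set of Klf6 (log2 difference -0.87 ± 0.12). The other probe sets of Klf6 differed by 0.079 and -0.20. On its tested probe set the Egr4 signal was 32.7 to 55.01 in SHR, against 3.88 to 22.8 in WKY. That probe set was bright enough to test through SHR, and its fold rests on the offset. Another Egr4 probe set, too dim to test, had means of 2.19 in SHR and 5.39 in WKY, the opposite direction.

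Members that act on RNA, ribosomes or the spindle were chosen for their roles after their values had been seen. Zfp593 and Zfp622, both factors of 60S ribosome maturation, had log2 differences of 0.25 ± 0.10 and 0.036 ± 0.072. Further Zfp593 probe sets, too dim to test, pointed the opposite way. Their means were 18.7 in SHR and 21.9 in WKY, and 1.41 in SHR and 1.88 in WKY. Zfp598, the ubiquitin ligase of collided ribosomes, differed by -0.0017 ± 0.13. Zfp207, a spindle protein that binds Bub3, differed by 0.12 and 0.032. Zfp638, a nuclear RNA- and DNA-binding protein, differed by 0.19, 0.015 and -0.24 on its 3 probe sets. None of these passed.

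The 6 probe sets with the highest signals all missed the threshold. They stood for Zfp771, Zfp330, Zfp638, Zfp326, Zfp664 and Zfp260, the last a cofactor of Gata4 in the heart. Zfp771 had 480.2 ± 16.6 in SHR, against 472 ± 26.1 in WKY (log2 difference 0.025 ± 0.057). Zfp330, a nucleolar protein gene, had 487 ± 48.5 in SHR, against 459 ± 49.2 in WKY (log2 difference 0.084 ± 0.080). Across the 6 the log2 differences ran from -0.071 (Zfp260) to 0.19 (Zfp638), and 0 passed in limma or had an unadjusted p under 0.05. The signals are those of probe sets and do not rank the transcripts.

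Close to the threshold stood 4 further probe sets. Zfp687 had 159, 133, 136, 149.7 and 136 in SHR, against 124, 116, 112, 117 and 110.0 in WKY, with no overlap (0.27 ± 0.075; limma adjusted p = 0.0527). Zfp692 had 168, 184, 183, 175 and 166 in SHR, against 155, 161, 149.7, 129.6 and 115 in WKY, also with no overlap (0.28 ± 0.086; limma adjusted p = 0.070). Zfp628 differed by 0.33 ± 0.099 (limma adjusted p = 0.0683), and Zfp324 by -0.65 ± 0.21 (limma adjusted p = 0.0909). Zfp324 passed without SHR 1 (-0.79; limma adjusted p = 0.0391). The other members without overlap that missed the threshold were Zfp9, Zfp24, Zfp105 and Zfp612, at 0.26, -0.24, -0.11 and 0.34.

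Different probe sets of a gene often disagreed. Of 40 Zfp genes with 2 or more tested probe sets, 20 had all differences of the same sign (50%), against 47.6% of 2526 other genes. The median range within a gene was 0.15 for Zfp and 0.18 for the others. The widest ranges were those of Zfp523 (0.43 and -0.20), Zfp428 (-0.53 and 0.083) and Zfp91, a ubiquitin ligase gene whose 6 tested probe sets ran from -0.35 to 0.24, the lowest from a design whose suffix marks possible cross-hybridization. With the scaling as deposited none of these probe sets passed. Zfp317 was the gene of the 40 with any probe set past the threshold, and it had both.

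**Figure D4:**
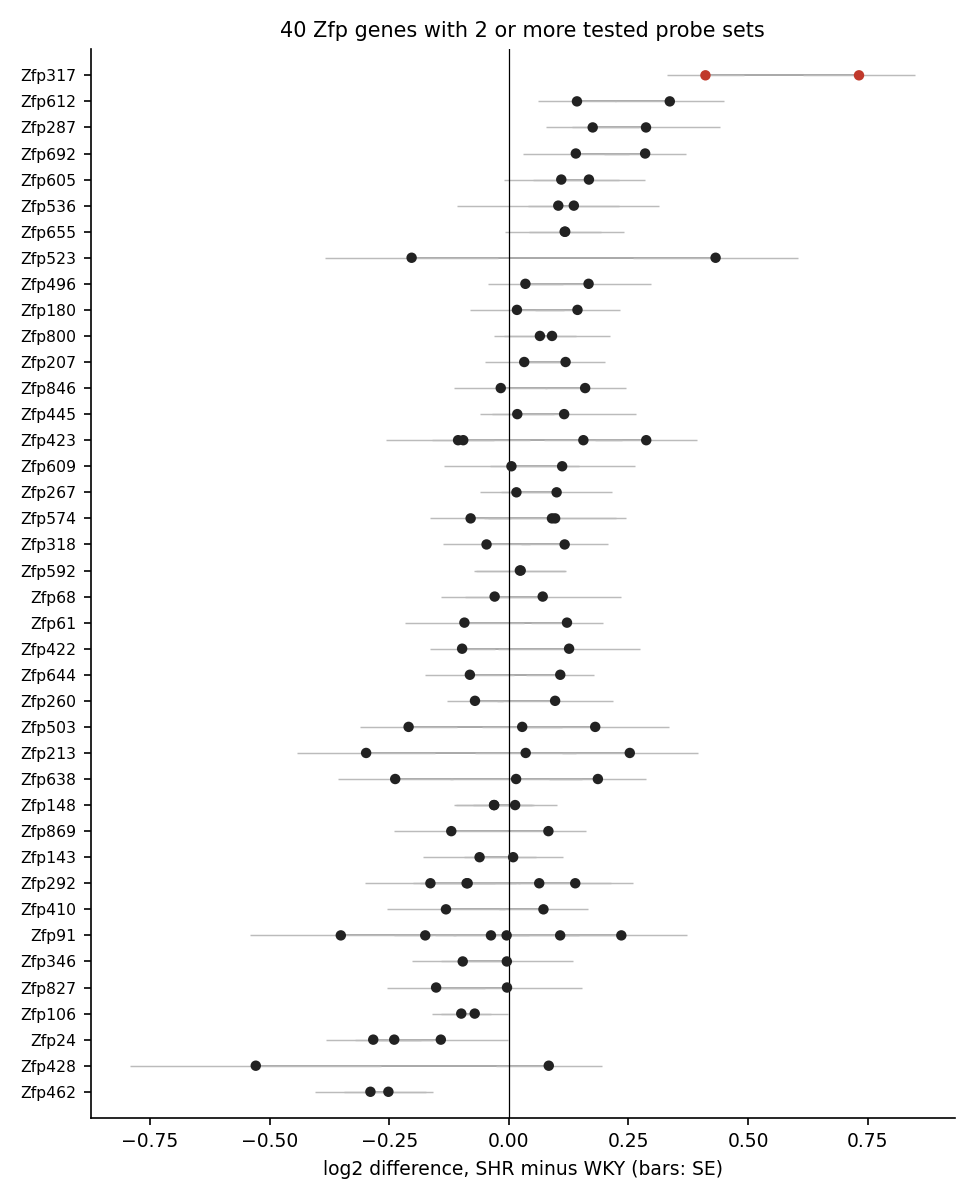
Log2 difference, SHR minus WKY, of each tested probe set of the 40 Zfp genes with 2 or more, ordered by the gene's mean; points are probe sets, bars are SE, and red marks an adjusted p below 0.05. Zfp317 at the top has both points in red, Zfp462 and Zfp24 lie below 0 on all their probe sets, and Zfp523 and Zfp428 span 0.

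By place in the genome, 203 Zfp genes could be found in the order of protein-coding genes in GRCr8, and 54 of them lie on chromosome 1. Direct neighbours of each other were 45 of them, in 19 runs of at most 4 genes. Of the 36 of these with a tested probe set 0 passed in limma on the brightest one, where 4.26% of all probe sets passed. An unadjusted p under 0.05 was found for 3 of the 36, against 21% of all. The 7 genes that passed therefore stand outside these runs, which at such a share is a description only. Of their nearest measured genes on each side, 14 in all, 0 passed in limma, beside the same 4.26%. Between 0 and 3 genes lie in between for 11 of the 14, but 27 on 1 side of Zfp597 and 40 and 26 beside Zfp317. The log2 differences of the 14 ran from -0.30 to 0.25, with a lowest limma adjusted p of 0.0654. An unadjusted p under 0.05 was found for 2 of the 14, against 21% of all. Naa60, which adjoins Zfp597, had 142 ± 11.65 in SHR, against 129 ± 12.6 in WKY (log2 difference 0.12 ± 0.082). Pirt, beyond Zfp18, had 156 ± 9.62 in SHR and 129.0 ± 8.68 in WKY with no overlap (log2 difference 0.25 ± 0.074), opposite in sign to Zfp18.

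The 11 tested genes with TACANTTCC in a promoter window were read on 14 probe sets, of which 12 had a log2 difference above 0, and their median was 0.18, beside 123 of 228 above 0 and a median of 0.015 over all tested Zfp probe sets. Both probe sets of Zfp317, which led to the choice of the motif, are among them and are the 2 that passed, so the counts are a description and carry no evidence about the motif. The next were Zfp354a, Zfp692, Zfp341 and Zfp334, at 0.29, 0.28, 0.26 and 0.22, and the 2 below 0 were Zfp386 and Zfp874b, each at -0.02. Zfp143 itself differed by 0.0089 ± 0.10 and -0.061 ± 0.12.

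The remaining 99 probe sets were too dim to test, with mean signals from 0.565 to 31.0 and a median of 13.5. For 35 genes no probe set was tested, among them Zfp37 (3.36 ± 3.41 in SHR, 4.97 ± 3.37 in WKY). A probe set that passed the filter could do so through 1 strain, as that of Zfp18 did, so the 228 do not stand for all members. The same may hold for Zfp518a through WKY, since its signals were 11.4 to 31.6 in SHR and 40.3 to 49.7 in WKY. For the dimmer Zfp317 probe set the SHR signals were enough by themselves. At 48.4 to 69.4 each lay above the median of its array, while the WKY signals were 24.4 to 32.8.

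Across arrays the median signal of the tested Zfp probe sets was 74.9 to 82.4 in SHR and 73.4 to 81.1 in WKY. SHR 3 held the highest value of 46 of the 228 and WKY 5 the lowest of 34, close to the 33 of SHR 2. Arrays correlated at 0.947 to 0.988. The NTS genes Th, Dbh and Prlh had means of 416, 272 and 538 in SHR and 477, 334 and 735 in WKY. Phox2a, of the same list, had 52.6 in SHR and 52.1 in WKY. Slc6a2, too dim to test, had 19.8 in SHR and 12.6 in WKY. Of the 4 probe sets tested, that of Prlh was lower in SHR (limma, log2 difference -0.42), and 3 had an unadjusted p under 0.05. Choroid plexus markers summed to 982 to 1146 in SHR, against 743 to 1007 in WKY. Most of each sum was Enpp2, which alone gave 686 to 813 on SHR arrays and 536 to 701 on WKY arrays. Of 5 probe sets 2 were higher, those of Enpp2 (0.28 in log2 units) and Sostdc1 (0.47), and 3 had an unadjusted p under 0.05. Sostdc1 had 36.8 to 54.6 in SHR and 27.2 to 33.3 in WKY, so it may have been bright enough to test through SHR. The probe sets of Aqp1, Folr1 and Ttr differed by 0.35, 0.24 and 0.068 without passing. Ttr was uneven within WKY, reaching 182 on WKY 1 but only 26.9 to 62.2 on the rest. Microglia markers summed to 1162 to 1239 in SHR, against 1307 to 1507 in WKY. Of 7 probe sets 2 were lower, those of Aif1 (-0.52 in log2 units) and C1qa (-0.42), while the second Aif1 probe set differed by 0.51 without passing. Cx3cr1 differed by 0.19, Csf1r by -0.13 and P2ry12 by -0.091 and -0.17, also without passing. Cd68, too dim to test, had 26.8 in SHR and 9.96 in WKY. In the neuronal list 1 of 9 probe sets was higher (Snap25, 0.33) and 3 had an unadjusted p under 0.05, one of them Gad1 at -0.30. In the endothelial list 1 of 4 was lower (Vwf, -0.52) and 2 had an unadjusted p under 0.05, the other being Pecam1 at 0.40. Of 9 astrocyte, 3 cerebellar granule neuron and 1 blood probe sets 0 passed in limma, with 1, 1 and 0 at an unadjusted p under 0.05. Over all probe sets tested 2.06% were higher, 2.2% were lower and 21% had an unadjusted p under 0.05. The part of these cell types in the Zfp results was not tested.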

How the data were processed

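The deposited table holds linear intensities, 1 per probe set on every array. The submitters' processing notes name GCOS 1.2. From the values, the mean after trimming 2% at each end is 100 on every array. How background was treated is not stated in the labels, and no detection call or batch label was used. The number of arrays limits the precision.

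Titles gave the strain of each array. The 57 control probe sets were left out. Log2(signal + 16) was used without further normalization; the offset understates the change of low signals. To be tested, a probe set had to reach the 40th percentile on at least 5 of 10 arrays, and 18846 of 31042 did. Strain was fitted in limma 3.58.1 (R 4.3.3) with the trend option, and p-values were adjusted over all of these by Benjamini-Hochberg, at a threshold of 0.05.

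Members, lists and tests were chosen with earlier results of these data known. Named genes were all members past the threshold with their other probe sets, the 6 with the highest signal, the 4 nearest the threshold, a list with described roles, neighbours, and called genes of other lists. Alternatives were other scalings, offsets, filters, variance models, covariates and left-out arrays. Protein domains were not analysed here.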

Additional observations from a re-analysis of the deposited data

Results flagged for a closer look

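Of the 56 named probe sets, 12 groups of 5 arrays held an array far from the other arrays of its strain by Dixon's gap test, which chance gives in about 1 in 20 of the 112 groups examined. In SHR 2 these were Zfp365 at 85.5 (others 52.2 to 60.3), Zfp518a at 11.4 (others 27.5 to 31.6) and Zfp629 at 94.8 (others 84.2 to 86.7). In SHR 3 they were Zfp488 at 92.3 (others 49.4 to 61.5) and Zfp664 at 371 (others 300.02 to 313). SHR 1 had Zfp275 at 233 (others 199 to 207), SHR 4 had an untested probe set of Zfp207 at 10.3 (others 0.757 to 2.82), and SHR 5 had Zfp37 at 9.40 (others 1.37 to 2.39). In WKY 3 they were 1 probe set of Zfp423 at 62.9 (others 43.0 to 45.7) and an untested one of Zfp91 at 2.96 (others 1.67 to 1.98). WKY 2 had a tested probe set of Zfp207 at 207 (others 248 to 257), and WKY 4 had Zfp365 at 68.0 (others 59.4 to 61.4). The probe set of Zfp37 was also untested for strain. Of the 8 calls, those of Zfp488, Zfp518a and Zfp629 are touched, and Zfp629 still passed without SHR 2.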

How the results depend on the processing

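The count of Zfp probe sets past the threshold was 8 as reported, 15 with a common median, 5 with no filter, 3 with the 60th percentile filter, 2 with the median-signal covariate and 5 without SHR 2 and SHR 3, and it ran from 4 to 8 with 1 array left out, with 5 without WKY 1, WKY 2 or WKY 3 and 4 without WKY 5. Over all probe sets 803 passed, against 1306, 206 and 512 with the common median, the covariate and without SHR 2 and SHR 3, 1214 with the replicate block, and 480 to 976 with 1 array left out, lowest without WKY 4 and WKY 5. The other zinc finger families held 4 calls, against 8 with the common median, 2 with no filter, with the covariate and without SHR 2 and SHR 3, 7 with the block, and 2 to 5 with 1 array left out, lowest without SHR 2. Co-repressor genes held 0 calls in limma and 2 with the common median, and immediate early genes 2, against 1 with the 60th percentile filter and with the covariate. The causes of these changes were not tested. Fewer probe sets were tested under the 60th percentile filter, and the fits with arrays left out held fewer arrays. The other alternatives kept these counts within 1.5 times, and the median and spread of the Zfp differences moved little, except the median with the common median (-0.10).

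The replicate block gave 10 Zfp calls. Same-numbered arrays correlated at 0.038 to 0.28 in their deviations from strain means, over 0.1 in 3 of 5 pairs. Arrays of unlike number ran from -0.24 (SHR 2 with WKY 5) to 0.19 (SHR 5 with WKY 4). SHR 2, SHR 3 and SHR 5 correlated best with their own numbers, but SHR 1 and SHR 4 did so with WKY 5. The labels name no pairs, and the numbers were not treated as pairs. Whether same-numbered arrays shared a step of handling was not tested. The block ended the call of Zfp575 and added those of Zfp324, Zfp687 and Zfp692. Counted over pairs of a named probe set and an alternative fit, 43 lost a call, 8 gained one and none turned the sign of a call. With 1 array left out, Zfp629 kept its call in 6 of 10 fits (lost without SHR 4, WKY 1, WKY 2 or WKY 5), Zfp488 in 5 (lost without SHR 1, SHR 3, WKY 1, WKY 3 or WKY 5), Zfp518a in 4 (lost without SHR 2 or any 1 WKY array) and Zfp575 in 3 (kept without SHR 1, SHR 5 or WKY 1). Their adjusted p in these fits reached at most 0.128 (limma).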
